A study of Mus musculus with 2 samples.

Results

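The mitochondrial genome of the mouse carries 37 genes, and all 37 have a row in the deposited gene tables. They were taken as every gene whose GENCODE M21 symbol begins with mt-, out of 69691 rows per table, and comprise 13 protein-coding, 2 rRNA and 22 tRNA genes. Total RNA was sequenced in 2 libraries labelled megakaryocyte, the large marrow cell from which platelets are released. The primary cells came from C57BL/6J mice that were adult, male and 5 to 6 weeks old. The libraries are biological replicates 1 and 2 of a single group for which the labels name no treatment, and were made from a starting amount of 100 ng of RNA with depletion of ribosomal RNA. The labels hold no second group, so values were compared between genes and between the libraries. The labels give the libraries separate biosample entries but the same donor entry, so spread between them may be partly technical.

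Mitochondrial DNA is a small circular genome that is transcribed from both strands as long RNAs spanning many genes. The tRNAs lie between the other genes, and their excision releases the rRNAs and the mRNAs. The rRNAs form the core of the mitochondrial ribosome, and the mRNAs encode core subunits of respiratory complexes I, III and IV and of ATP synthase, complex V. All other subunits of these complexes, and all proteins that copy, transcribe and translate the mitochondrial genome, come from nuclear genes. Megakaryocytes pass mitochondria on to the platelets they shed.

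Summed expected counts, which are estimated reads per gene, were 42703213 in library 1 and 50532821 in library 2. The cell type label was checked against marker genes. Of 11 megakaryocyte markers, 10 lay under 1 TPM (a length-scaled level whose sum is the same in every library) in both libraries, Gp5 and Gp6 had 0 counts in both, and the summed level of the list was 3.52 TPM in library 1, with 5.53 TPM in library 2. Markers of neutrophils summed to 14604 and 13794 TPM and those of monocytes to 7702 and 10091 TPM. Erythroid markers summed to 114.7 and 54.8 TPM. The markers go against the label, so the samples are called the libraries labelled megakaryocyte. Which cells the mitochondrial RNA came from was not tested.

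The values of several mitochondrial genes rest on how reads were split with nuclear genes of almost the same sequence. A search of the mitochondrial genes against all GENCODE M21 transcripts found 11 nuclear pseudogenes with a row in the tables that matched at 95% identity or more over 100 bases or more. Of these, 7 lie together on the minus strand of chromosome 1 (mm10, chr1:24611535-24616197, 4663 bases), in the order of the mitochondrial genes they resemble. Gm29216 resembles the end of mt-Co1, Gm28661 mt-Co2, Gm10925 mt-Atp6, Gm28437 mt-Co3, Gm28438 mt-Nd3, Gm10222 mt-Nd4l and Gm28439 the first 876 bases of mt-Nd4. Over the aligned bases, 5 of the 7 on chromosome 1 were 100% identical. The other 4 pseudogenes, on other chromosomes, held 33.6 counts in library 1 and 23.2 in library 2 in all.

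The ends of 3 identical pairs are shown because they are the only bases of the mitochondrial gene that its copy lacks. Capitals mark those bases. They complete the stop codon in mt-Co2 and mt-Atp6 and are the first base of an unfinished stop codon in mt-Co3. The sequences are from GENCODE M21 transcripts, written 5′ to 3′. The mitochondrial stretches are chrM:7664-7696, chrM:8575-8607 and chrM:9360-9390 on the plus strand, and the nuclear stretches chr1:24614885-24614914, chr1:24613974-24614003 and chr1:24613189-24613218 on the minus strand.
mt-Co2: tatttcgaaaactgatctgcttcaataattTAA
Gm28661: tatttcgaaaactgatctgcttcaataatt
mt-Atp6: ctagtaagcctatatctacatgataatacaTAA
Gm10925: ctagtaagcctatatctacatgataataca
mt-Co3: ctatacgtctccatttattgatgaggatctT
Gm28437: ctatacgtctccatttattgatgaggatct

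The remaining 2 copies differ from the mitochondrial gene by 1 base each over the aligned stretch, T3C in mt-Nd3 against Gm28438 and A1066T in mt-Co1 against Gm29216. Positions count from 1 at the 5′ end of the mitochondrial gene, and the mitochondrial base comes first. The stretches around the differing base, in capitals, are chrM:9459-9481 and chr1:24613097-24613119 for mt-Nd3, where it falls in the start codon, and chrM:6390-6413 and chr1:24616165-24616188 for mt-Co1.
mt-Nd3: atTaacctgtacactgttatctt
Gm28438: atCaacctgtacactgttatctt
mt-Co1: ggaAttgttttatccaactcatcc
Gm29216: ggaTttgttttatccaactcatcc

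Most counts were assigned to the nuclear copy in 4 of the 7 pairs in both libraries. mt-Co2, a core subunit of complex IV, was given 1658 counts in library 1 and 1284 in library 2, which is 2.56% and 2.13% of what it and Gm28661 held together. mt-Atp6, the membrane subunit of ATP synthase that forms the proton path, was given 228 and 1211 counts, 0.502% and 2.82% of the pair. mt-Co3, a further core subunit of complex IV, was given 8019 and 16425 counts, 8.18% and 14.5% of the pair. mt-Nd4l, a small membrane subunit of complex I, was given 0 and 31.5 counts, while Gm10222 held 2723 and 2375. The pair of mt-Nd3 was split differently in the libraries, with 70.2% of its counts on mt-Nd3 in library 1 and 33.3% in library 2. mt-Co1 kept 98.1% and 99.9% of its pair with Gm29216. mt-Nd4 kept 99.98% of its pair in library 1, and in library 2 Gm28439 had 0 counts.

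**Figure D1:**
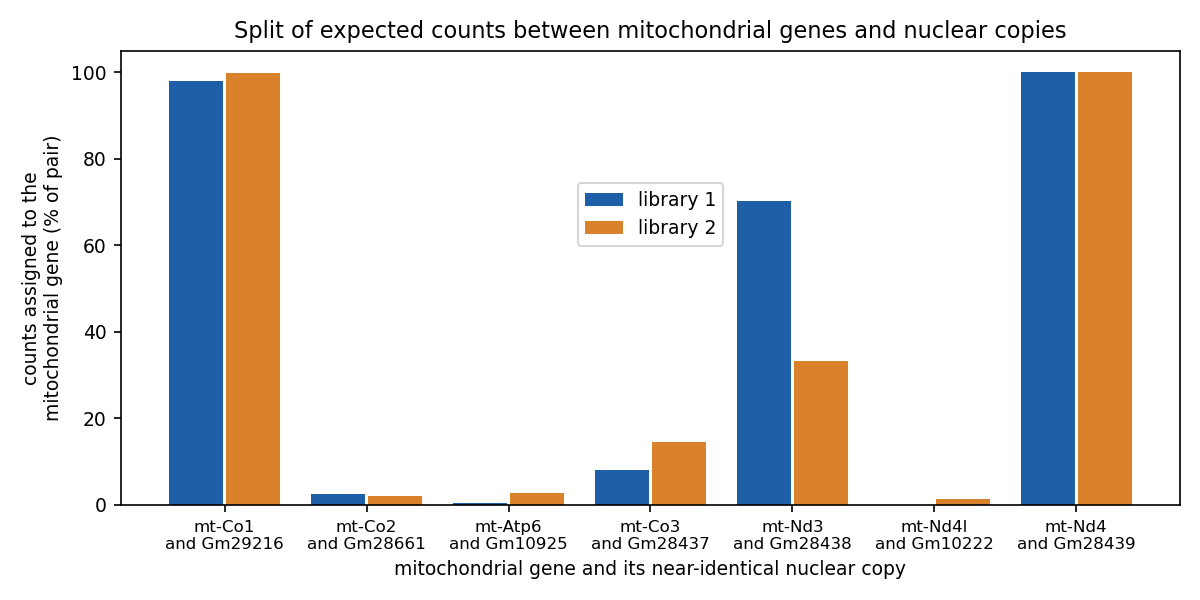
Percent of the expected counts of each pair that were assigned to the mitochondrial gene, the rest being assigned to its near-identical copy on chromosome 1, with a bar for each library. mt-Co2, mt-Atp6, mt-Co3 and mt-Nd4l received under 15% of their pair in both libraries, and mt-Nd3 received 70.2% in library 1 and 33.3% in library 2.

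For mt-Co2, mt-Atp6 and mt-Co3, the deposited level and the deposited posterior mean of the level were far apart in both libraries. The deposited level of mt-Atp6 was 4.98 TPM in library 1, its deposited posterior mean was 248 TPM, and the bounds deposited with that mean, whose level is not stated, ran from 2.42 to 589 TPM. For mt-Co2 in library 1 the level was 35.9 TPM, the posterior mean 288 TPM and the bounds 64.8 and 922 TPM. mt-Nd3, at 748 TPM by level and 740 TPM by posterior mean in library 1, did not show such a gap, nor did mt-Co1 or mt-Nd4. mt-Nd4l had levels of 0 and 3.61 TPM in libraries 1 and 2 and posterior means of 3.75 and 6.42 TPM. Its upper bounds were 10.9 and 15.7 TPM, below the 313 and 276 TPM found with its copy added. The level of mt-Co2, mt-Atp6 or mt-Co3 summed with that of its copy moved little. The TPM of mt-Atp6 and Gm10925 summed in library 1 to 998.6 TPM by level and 986 TPM by posterior mean, and in library 2 to 852 and 843 TPM. Expected counts of the 8 rRNA and protein-coding genes with no copy on chromosome 1 were whole numbers in both libraries (within 0.005). None of the 7 genes with such a copy had whole counts in both libraries. The tables do not show whether reads given to the copies came from the mitochondrial or the nuclear gene. Each level is therefore given as deposited and with the copies added, which sums the counts of gene and copies over the effective length of the mitochondrial gene.

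As deposited, the mitochondrial genes held 1.70% of all expected counts in library 1 (exact binomial 95% interval 1.69 to 1.70%) and 1.34% in library 2 (1.33 to 1.34%). Such intervals cover counting error only. The protein-coding genes held 1.25% and 1.15% of counts, and the rRNA genes 0.445% and 0.187%. The nuclear copies on chromosome 1 held 212967 and 210161 counts, or 0.499% and 0.416% of all. Members and copies together held 2.20% and 1.75%. Of the TPM of all protein-coding genes, the 13 mitochondrial genes took 3.87% in library 1 and 3.03% in library 2.

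Complex I oxidises NADH and pumps protons. Its 7 mitochondrial subunits are core subunits of the membrane arm. mt-Nd1, which joins this arm to the matrix arm, stood at 423 TPM in library 1 and 336 TPM in library 2, and no near-identical copy was found. mt-Nd2 stood at 119 and 65.6 TPM, mt-Nd4 at 215 and 131 TPM and mt-Nd5 at 109 and 65.6 TPM, all 3 of them antiporter-like subunits of the arm. All of these were higher in library 1, and mt-Nd1 lay above the other 3 in both libraries.

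Of the smaller complex I genes, mt-Nd3 and mt-Nd4l were less certain. mt-Nd3 stood at 748 and 365 TPM as deposited, and at 1065 and 1096 TPM with its copy added. The libraries were thus apart as deposited and close together with the copy added. mt-Nd4l stood at 0 and 3.61 TPM, and at 313 and 276 TPM with its copy. mt-Nd6, the only protein-coding gene on the minus strand, had 573 and 486 counts and stood at 19.3 and 15.02 TPM. With copies added, mt-Nd6 was the lowest of the 13 genes in both libraries.

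Complex III passes electrons to cytochrome c, and its sole mitochondrial subunit is cytochrome b. Its gene mt-Cytb stood at 227 TPM in library 1 and 166 TPM in library 2, from 20981 and 17175 counts, with no near-identical copy found.

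Complex IV reduces oxygen, and mt-Co1 encodes its catalytic subunit. mt-Co1 stood at 3023 and 3141 TPM and was the gene with the most counts, 400249 in library 1 and 468605 in library 2. That is 74.8% and 80.7% of the counts of the 13 genes as deposited, and 54.5% and 59.3% with copies added. The other core subunits stood far lower as deposited, mt-Co2 at 35.9 and 25.1 TPM and mt-Co3 at 143 and 263 TPM. With copies added, mt-Co2 stood at 1402 and 1179 TPM and mt-Co3 at 1746 and 1812 TPM. mt-Co1 was above both in each library by either measure.

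ATP synthase uses the proton gradient to make ATP. The small subunit gene mt-Atp8 had the highest level of the 13, at 4583 TPM in library 1 and 3778 TPM in library 2. This level comes from 10623 and 7650 counts over effective lengths of 23.1 and 17.8 bases, against an annotated length of 204 bases. Effective length is the number of start positions left for a typical fragment, and it is near 0 for a gene this short. Per base of annotated length, mt-Atp8 had 52.1 and 37.5 counts, against 259 and 303 for mt-Co1. As deposited, mt-Co1 was then the highest gene and mt-Atp8 the next. With copies added, mt-Co3 at 125 and 144 counts per base, mt-Co2 at 94.6 and 88.1 and mt-Atp6 at 66.8 and 63.1 also stood above mt-Atp8 in both libraries, and mt-Nd3 at 43.1 did so in library 2. mt-Atp6 stood at 4.98 and 23.9 TPM as deposited, and at 992 and 846 TPM with its copies.

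The reading frames of mt-Atp8 and mt-Atp6 share 43 bases of the same strand, and those of mt-Nd4l and mt-Nd4 share 7. Fragments of the sizes given by the labels are longer than either stretch, so none of those sizes could lie wholly within it. mt-Atp8 itself, at 204 bases, is shorter than the lowest label size of library 1. The expected counts of mt-Atp8 were whole numbers, 10623 in library 1 and 7650 in library 2. The shared bases are shown in capitals with flanking bases of each gene, at chrM:7915-7981 and chrM:10143-10197.
mt-Atp8/mt-Atp6: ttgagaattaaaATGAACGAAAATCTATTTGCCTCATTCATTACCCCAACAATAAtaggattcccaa
mt-Nd4l/mt-Nd4: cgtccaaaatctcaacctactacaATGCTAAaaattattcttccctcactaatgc

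**Figure D2:**
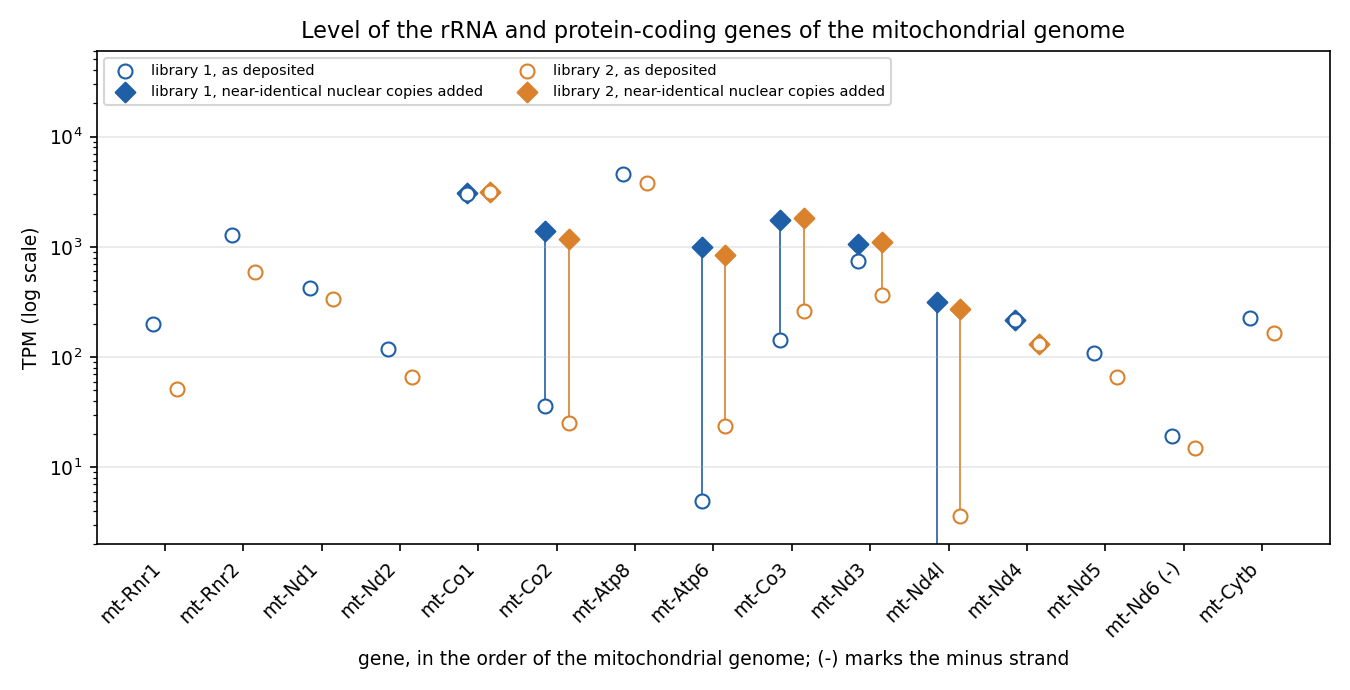
Level in TPM (log scale) of the 2 rRNA and 13 protein-coding genes in genome order, in both libraries, as deposited (open circles) and with near-identical nuclear copies added (diamonds, for the 7 genes with a copy on chromosome 1). The gap between circle and diamond is widest for mt-Co2, mt-Atp6 and mt-Nd4l, and small for mt-Co1 and mt-Nd4; mt-Nd4l is listed at 0 in library 1, so its circle is not drawn there.

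With copies added, the order of the genes was nearly the same in both libraries. From the highest it ran mt-Atp8, mt-Co1, mt-Co3, mt-Co2, mt-Nd3, mt-Atp6, mt-Nd1, mt-Nd4l, mt-Cytb and mt-Nd4, with mt-Nd2 and mt-Nd5 changing places before mt-Nd6. By TPM, values of mt-Cytb and mt-Nd4 overlapped between the libraries, as did those of mt-Nd2 and mt-Nd5. The other neighbours did not overlap by TPM. The TPM of mt-Nd3 and mt-Nd4l also comes from short effective lengths. These were 131 and 120 of 348 bases for mt-Nd3, and 87 and 77 of 297 for mt-Nd4l. Per base of annotated length with copies added, mt-Nd3 (40.2 and 43.1 counts) lay below mt-Atp6 (66.8 and 63.1) in both libraries. mt-Nd4l (9.168 and 8.104) then lay below mt-Nd4 (18.1 and 12.4) and mt-Cytb in both. By TPM as deposited, mt-Atp8, mt-Co1, mt-Nd3 and mt-Nd1 led in that order in both libraries. The places of mt-Co3, mt-Cytb, mt-Nd4, mt-Nd2, mt-Nd5, mt-Nd6 and mt-Atp6 differed. Per base of annotated length as deposited, mt-Nd1 (32.5 and 28.8 counts) lay above mt-Nd3 (28.3 and 14.3) in both libraries.

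Position along the genome and strand were not used to choose the genes. The 12 protein-coding genes of the plus strand are read from the same long RNA, and as deposited their levels in library 2 ran from 3.61 to 3778 TPM. Across these 12 genes, Spearman's rho of level with gene order was -0.21 in library 1 and -0.20 in library 2, and -0.41 and -0.34 with copies added. These are descriptions across genes that share libraries, and genes are not independent replicates. mt-Nd6 stood at 0.108 of the median of the 12 genes in library 1 and 0.101 in library 2, and at 0.0273 and 0.0254 with copies added. mt-Nd6 shares 14 bases with mt-Nd5 on the opposite strand, and whether the counting used strand is not given in the sources used here.

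Base composition followed strand in the annotated sequences. In mt-Nd6, G made up 28.1% of bases and C 5.97%. In the 12 genes of the plus strand, G ran from 5.88 to 16.1% and C from 22.1 to 30.0%. Of the 13 genes, 9 begin with ATG, while mt-Nd1 begins with GTG, mt-Nd2 with ATA, mt-Nd3 with ATT and mt-Nd5 with ATC. A full stop codon ends 10 of the genes. mt-Co3, mt-Nd4 and mt-Cytb end in a lone T, and in such genes the poly(A) tail is known to complete the stop codon.

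Among the genes without a copy on chromosome 1, the rRNA genes differed most between the libraries. mt-Rnr1, the rRNA of the small mitochondrial ribosomal subunit (chrM:70-1024), had 14724 counts in library 1 and 4172 in library 2, or 201 and 50.9 TPM. mt-Rnr2, the rRNA of the large subunit (chrM:1094-2675), had 175265 and 90172 counts, or 1288 and 588 TPM. mt-Rnr2 exceeded mt-Rnr1 6.41-fold in library 1 and 11.5-fold in library 2. Against the median of the 13 mRNAs as deposited, mt-Rnr2 stood 9.02-fold and 4.48-fold higher. mt-Rnr1 stood at 1.41 times this median in library 1 and 0.387 times in library 2, so its direction differed between libraries. With copies added it was below the median in both, at 0.474 and 0.152 times. Ribosomal RNA was depleted during library preparation, per the labels, and the effect of that step on the mitochondrial rRNAs was not tested.

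All 22 tRNA genes had 0 counts in both libraries. They are 59 to 75 bases long, and the labels give fragments of 221 to 1000 nucleotides in library 1 and of 200 to 1000 nucleotides in library 2. mt-Atp8, at 204 bases, is shorter than the lowest label size of library 1 but held 10623 counts there. Why was not tested. Each had an effective length of 0, as did 30405 rows of the table in library 1 and 30796 in library 2. Only 34 and 37 of those rows had any count, and the longest of them was 121 bases in library 1 and 128 in library 2. Those lengths are under the label sizes. The tables therefore give no level or limit for mitochondrial tRNA. Of the 22, 14 lie on the plus strand and 8 on the minus strand. The shortest and the longest, mt-Ts2 for serine (chrM:11613-11671) and mt-Tl1 for leucine (chrM:2676-2750), are shown to give the scale of genes with an effective length of 0.
mt-Ts2: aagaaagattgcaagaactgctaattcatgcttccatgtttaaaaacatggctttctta
mt-Tl1: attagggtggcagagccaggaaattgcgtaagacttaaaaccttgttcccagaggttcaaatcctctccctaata

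Each complex also holds nuclear subunits, which allows the level of both sets to be compared per length. The median level of the mitochondrial subunits was above that of the nuclear subunits in every complex and in both libraries as deposited. For complex I, 7 mitochondrial genes had a median of 119 TPM in library 1 and 65.6 TPM in library 2, against 28.1 and 34.2 TPM for 36 nuclear genes, a ratio of 4.24 and 1.92. For complex III, mt-Cytb was 7.51 and 4.68 times the median of 9 nuclear genes. It lay above the nuclear gene Uqcrb in library 1 (227 against 177 TPM) and below it in library 2 (166 against 218 TPM). For complex IV, 3 genes had a median of 143 and 263 TPM, against 112 and 110.4 TPM for 11 nuclear genes, a ratio of 1.28 and 2.38. For complex V, 2 genes had a median 42.6 and 32.7 times that of 17 nuclear genes, a value that rests on the short effective length of mt-Atp8. The other gene, mt-Atp6, stood at 4.98 and 23.9 TPM as deposited, below the nuclear medians of 53.8 and 58.2 TPM.

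The copies moved these ratios most in complex IV. With them added, the ratio was 15.6 and 16.4 for complex IV, 7.65 and 3.84 for complex I and 51.8 and 39.8 for complex V. All 3 mitochondrial genes of complex IV then lay above its highest nuclear subunit gene in both libraries, against 1 of 3 as deposited. The highest nuclear subunit genes were Ndufa3 at 110.9 ± 6.51 TPM in complex I, Uqcrb at 198 ± 28.96 TPM in complex III, Cox6c at 260 ± 57.6 TPM in complex IV and Atp5b, the catalytic beta subunit of ATP synthase, at 407 ± 16.2 TPM in complex V (mean ± SD, n = 2).

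**Figure D3:**
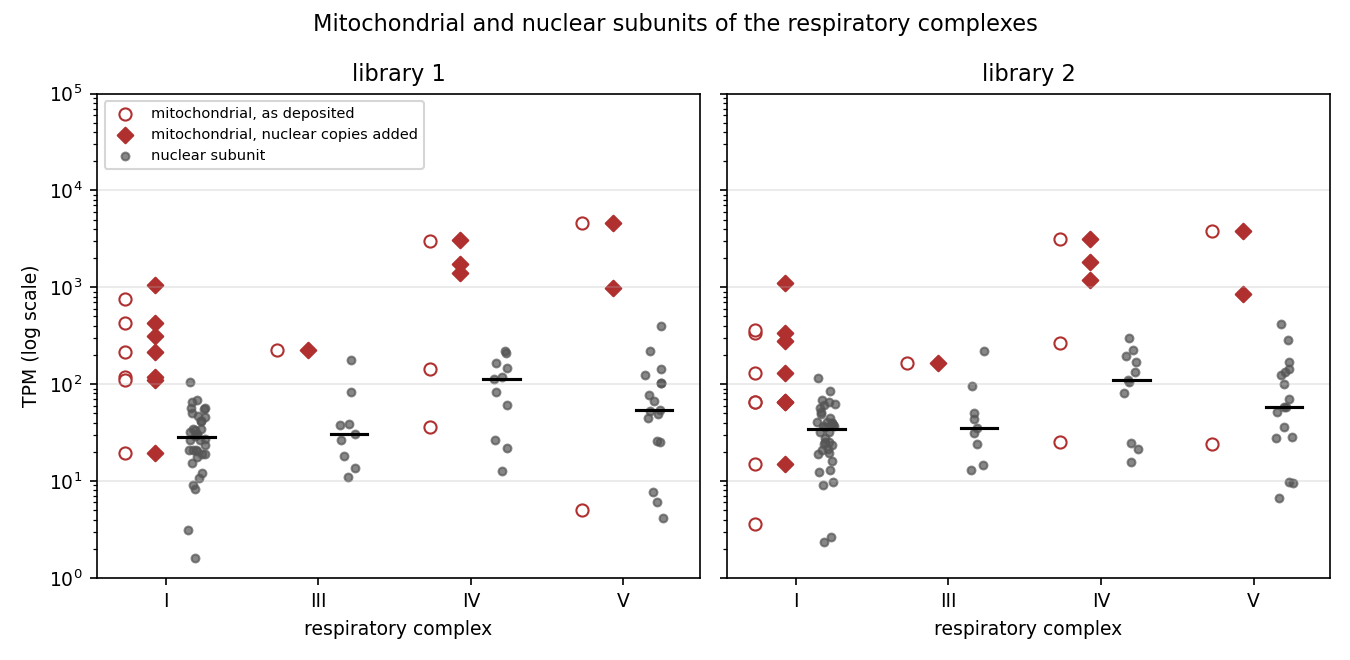
Level in TPM (log scale) of mitochondrial subunits as deposited (open circles) and with nuclear copies added (diamonds), beside the nuclear subunits (grey points, bar at the median) of complexes I, III, IV and V in each library. All 3 diamonds of complex IV lie above every nuclear subunit gene in both libraries; mt-Nd4l, listed at 0 in library 1 as deposited, has no circle there.

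Genes that maintain and express the mitochondrial genome had lower list medians than the nuclear subunits of any complex. All 21461 nuclear protein-coding genes had a median of 0.28 TPM in library 1 and 0.27 TPM in library 2. Of these genes, 42.4% reached 1 TPM in both libraries. The genes that did so had a median of 7.85 TPM in library 1 and 8.12 TPM in library 2. The list medians below cover every gene of a list with a row, also those under 1 TPM. For transcription and DNA maintenance, 14 of 17 genes reached 1 TPM in both libraries, with list medians of 3.13 TPM in library 1 and 3.44 TPM in library 2. The highest were Ssbp1, the single-stranded DNA binding protein of mitochondria, at 15.9 ± 0.0849 TPM, the termination factor family member Mterf3 at 13.4 ± 2.28 TPM and Tfam, which packages the DNA and starts transcription, at 12.8 ± 1.53 TPM. Top1mt, Mterf2 and Mterf1b lay under 1 TPM in both libraries.

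For RNA processing, modification and decay, 29 of 31 genes reached 1 TPM in both libraries. Rexo2, an oligoribonuclease, led at 37.6 ± 5.20 TPM, before Grsf1, an RNA granule protein, at 20.7 ± 0.0778 TPM and Hsd17b10, a subunit of the RNase P of mitochondria, at 19.7 ± 2.67 TPM. All 48 genes of the large and all 31 of the small ribosomal subunit with a row reached 1 TPM in both. Their medians were 9.36 and 9.76 TPM for the large subunit and 9.79 and 10.95 TPM for the small subunit in libraries 1 and 2. Mrpl48 at 57.0 ± 10.2 TPM, Mrpl30 and Mrpl18 led the large subunit, and Mrps21 at 98.4 ± 21.2 TPM, Mrps18c and Mrps14 the small subunit.

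Aminoacyl-tRNA synthetases, which charge tRNAs, reached 1 TPM in both libraries in 16 of 22 genes. Gars at 21.02 ± 2.81 TPM and Kars at 19.6 ± 0.488 TPM, which also serve the cytoplasm, led the list before Iars2 at 7.10 ± 0.735 TPM, while Nars2 and Ears2 lay under 1 TPM in both. Of the translation factors and membrane insertion genes, 12 of 13 reached 1 TPM in both. Tufm, the elongation factor of mitochondria, stood at 9.69 ± 1.92 TPM, and the initiation factors Mtif2 and Mtif3 at 9.29 ± 0.523 and 8.86 ± 0.516 TPM. The lists were described by counts and medians and were not tested against other genes.

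The libraries were compared with each other gene by gene, over the 14283 genes whose counts averaged at least 10. The two-sided exact binomial test holds counting error only and compares these libraries, not conditions; it called 65.1% of all genes tested after Benjamini-Hochberg adjustment. Of the 37 mitochondrial genes, 15 were tested, since the tRNA genes had no counts, and all 15 were called. As deposited, 12 were higher in library 1 by counts scaled for library size, against 32.2% of all genes, and 3 lower, against 32.9%. The median log2 ratio, library 1 over library 2, was 0.61 over these genes and 0.00 over all genes tested. Among 6349 nuclear protein-coding genes at a mean count of 1000 or more, the 5th and 95th percentiles of this ratio were -0.34 and 0.37. In bulk RNA, fewer cells of a type and less RNA per cell cannot be told apart.

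The rRNAs had the highest ratios among genes without a copy on chromosome 1. mt-Rnr1 was 4.17-fold higher in library 1 (exact 95% interval 4.03 to 4.32) and mt-Rnr2 2.30-fold (2.28 to 2.31). Of the 6349 nuclear genes, 0 had a higher ratio than mt-Rnr1 and 2 had a higher ratio than mt-Rnr2. Among the mRNAs without such a copy, mt-Nd2 was 1.92-fold higher in library 1, mt-Nd5 1.74-fold, mt-Atp8 1.64-fold, mt-Cytb 1.44-fold, mt-Nd6 1.39-fold and mt-Nd1 1.33-fold. The adjusted p of mt-Nd6 was 2.76e-07 by the exact binomial test, with an interval of 1.23 to 1.58. mt-Nd4 was 1.72-fold higher with or without its copy. mt-Co1 differed little, at 1.01-fold as deposited (interval 1.00 to 1.01, exact binomial adjusted p = 6.23e-05) and 1.03-fold with its copies. By TPM as deposited, mt-Co1 was lower in library 1, at 3023 against 3141 TPM.

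The 3 genes lower in library 1 all had a copy on chromosome 1. By scaled counts, all 3 turned when the copies were added. mt-Atp6 stood at 0.222 times its library 2 level as deposited and at 1.25 times with its copy. mt-Co3 stood at 0.577 times as deposited and at 1.02 times with its copy. By TPM with its copy, mt-Co3 stayed lower in library 1, at 1746 against 1812 TPM. mt-Nd4l, with 0 counts in library 1, was at least 8.90-fold lower there by a floor of 3 counts in library 1, and 1.34-fold higher with its copy. The exact 95% interval of its deposited ratio, which holds the counting error of both libraries, ran from 0 to 0.144. mt-Nd3 was 2.33-fold higher in library 1 as deposited and 1.10-fold higher with its copy, and mt-Co2 1.53-fold and 1.27-fold higher. With copies added, all 15 genes were called and higher in library 1 by scaled counts, with a median log2 ratio of 0.48. In that setting 9292 of all genes were called, against 9298 as deposited. By TPM with copies added, however, mt-Co3, mt-Nd3 (1065 against 1096 TPM) and mt-Co1 (3082 against 3143 TPM) were lower in library 1. The share of all genes higher in library 1 is given here only for counts as deposited. With copies added, mt-Co3 at 0.032, mt-Co1 at 0.040, mt-Nd3 at 0.14, mt-Atp6 at 0.32 and mt-Co2 at 0.34 were within the range of nuclear genes. That range is the 5th to 95th percentile given above, and the other genes lay above it. For the counts as deposited, with an assumed biological coefficient of variation of 0.1, edgeR's exact test called 11 of the 15 and 17.5% of all genes. Of the 11, 8 were higher in library 1, against 9.79% of all genes, and 3 lower, against 7.7% of all genes, while mt-Nd1, mt-Co1, mt-Nd6 and mt-Cytb were not called. The 3 lower genes are again mt-Atp6, mt-Co3 and mt-Nd4l.

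The nuclear lists are read against the share of all genes tested, of which 32.2% were higher and 32.9% lower in library 1. Genes with more counts are called more readily by this test. Of the 6349 nuclear protein-coding genes at a mean count of 1000 or more, 2392 were lower and 2017 higher. Of the nuclear complex V genes, 13 of 17 were lower and 2 higher in library 1 by the exact binomial test, and of the complex I genes 18 of 36 were lower and 8 higher. For complex III 6 of 9 were lower and 0 higher, and for complex IV 7 of 11 were lower and 2 higher. For transcription and DNA maintenance 6 of 17 genes were lower and 3 higher, and for the aminoacyl-tRNA synthetases 8 of 22 were lower and 4 higher. Both shares of lower genes were near that of all genes, and both shares of higher genes were below the 32.2% of all genes. For RNA processing 13 of 31 were lower and 3 higher, and for the translation factors 5 of 13 were lower and 3 higher. Of the large ribosomal subunit, 21 of 48 genes were lower and 7 higher, and of the small subunit 16 of 31 were lower and 5 higher. Beside these differences, the summed erythroid markers were higher in library 1 (114.7 TPM, against 54.8 TPM in library 2) and the summed monocyte markers lower (7702 TPM, against 10091 TPM in library 2). Their part in the mitochondrial difference was not tested.

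**Figure D4:**
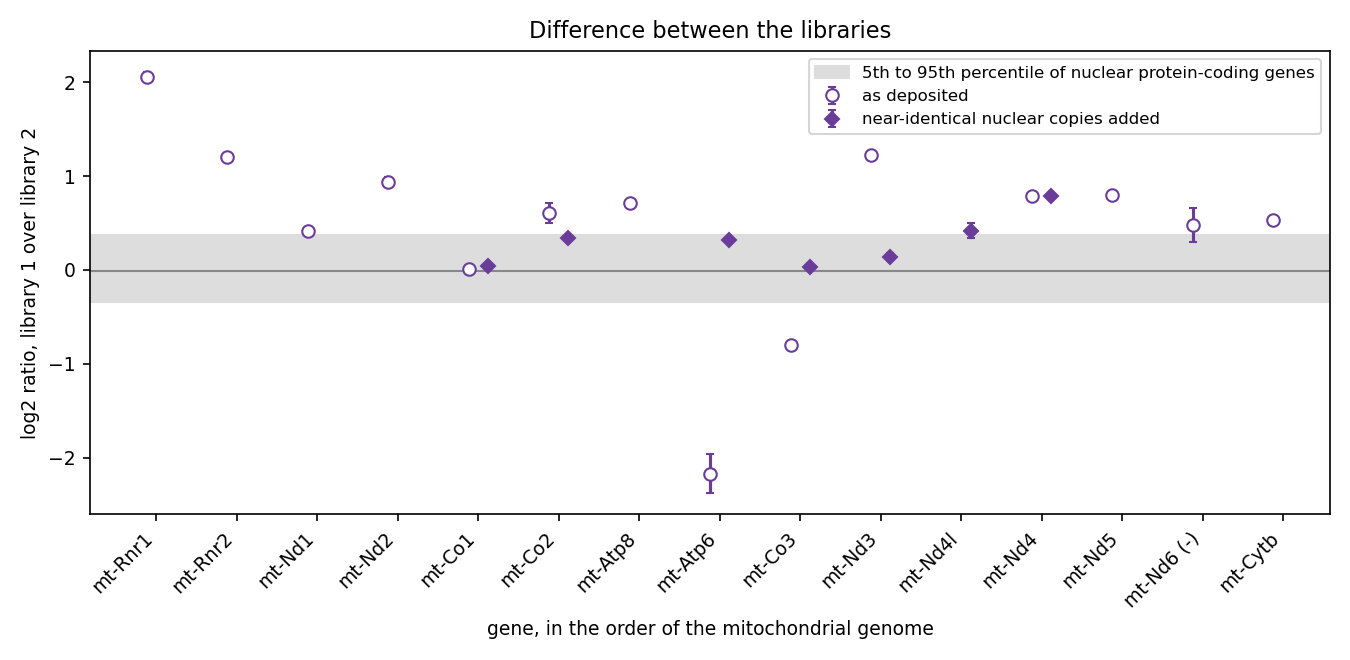
Log2 ratio of library 1 over library 2 for the rRNA and protein-coding genes as deposited (open circles) and with nuclear copies added (diamonds), with exact 95% intervals for counting error. The grey band spans the 5th to 95th percentile of nuclear protein-coding genes, -0.34 to 0.37; mt-Atp6 and mt-Co3 lie below 0 as deposited and above 0 with copies added, and mt-Nd4l as deposited, with 0 counts in library 1, is not drawn.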

How the data were processed

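Total RNA of the 2 libraries labelled megakaryocyte was depleted of ribosomal RNA and prepared with a ScriptSeq kit, per the labels. A text file that the authors deposited beside the tables names build mm10 and GENCODE release M4. Neither aligner, quantifier nor the use of strand in counting is given in the sources used here; the headers match the output format of RSEM. The deposited gene tables hold expected counts (estimated reads, divided among genes that share them), TPM and FPKM made by the authors for each library, with a posterior mean TPM and its bounds; FPKM served no result. Gene and transcript tables gave the same values for all 37 mitochondrial genes.

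Symbols, positions and sequences came from GENCODE M21 (GRCm38, the same build as mm10), and nuclear copies were sought among its transcripts with blastn 2.17.0 at 95% identity over 100 bases. Sequence outside annotated transcripts was not searched. The libraries were compared by a two-sided exact binomial test on expected counts rounded to whole numbers, scaled by TMM (edgeR 4.0.16), for genes whose counts averaged at least 10, with Benjamini-Hochberg adjustment and a threshold of 0.05. Since 2 libraries of 1 group leave no residual degrees of freedom, the test holds counting error only. The script was tested on simulated counts. Python 3.11.15, SciPy 1.17.1, R 4.3.3 and DESeq2 1.42.0 (size factors as an alternative) were used. Means are given ± SD over 2 libraries.

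All members were reported, the tRNA genes by range, and of each nuclear list the 3 genes with the highest mean TPM and any gene under 1 TPM in both libraries. The members and the lists were chosen with earlier results of these data known. Ndufb1 and Mrpl33 were not analysed here.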

Additional observations from a re-analysis of the deposited data

How the results depend on the processing

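Values here are means over both libraries. Adding the near-identical nuclear copies moved most results; it was planned for the share of counts and chosen after seeing the data for the others. It raised the mitochondrial share of counts to 1.97%, against 1.52% as deposited, the median TPM of complex I to 173, of complex IV to 1779 and of complex V to 2550, and the ratio of mitochondrial to nuclear subunits to 5.75 in complex I, 16.01 in complex IV and 45.8 in complex V. It lowered mt-Rnr2 over the mRNA median to 2.40, mt-Nd6 over the plus-strand median to 0.0264 and Spearman's rho with gene order to -0.37. It reversed the log2 ratio of scaled counts between libraries of mt-Atp6 to 0.32, of mt-Co3 to 0.032 and of mt-Nd4l to 0.42. By TPM with its copy, mt-Co3 stayed lower in library 1, at 1746 against 1812 TPM.

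Rescaling TPM over protein-coding genes alone raised the medians of complexes I, III, IV and V to 357, 756, 761 and 8033 TPM. The deposited posterior mean gave 579 TPM for complex IV. With full annotated lengths, the complex V median fell to 286 and its ratio to nuclear subunits to 6.35, mt-Nd6 stood at 0.0740 of the plus-strand median and rho was -0.23. Leaving out overlapping genes gave 0.0872 for mt-Nd6 and -0.12 for rho, and left no gene for complex V. By the mean of log2(TPM + 1), the subunit ratio was 3.17 in complex IV and 4.15 in complex V. At 5 TPM in place of 1 TPM, 5 genes of transcription and DNA maintenance, 15 of RNA processing and 3 aminoacyl-tRNA synthetases passed in both libraries. At an assumed biological coefficient of variation of 0.1, 2499 genes were called, against 9298.

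Leaving out a library put mt-Rnr1 at 0.387 times the mRNA median with library 2 alone and at 1.41 times with library 1 alone; the cause was not tested. DESeq2 size factors, summed counts as scaling and no count filter kept all 15 calls and their directions; a mean count of 100 or more left out mt-Nd4l and kept the other 14. No nuclear subunit was under 1 TPM in both libraries, so that filter changed nothing. No paired analysis was possible because both libraries belong to 1 group. Short genes are limited by effective length, and tRNA genes have no level at any depth here.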
